A study of Mus musculus with 22 samples.

Results

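The nuclear genes of mitochondrial complexes III, IV and V were followed in embryonic mouse heart ventricles in which Lin9, Sav1 or both had been deleted. Members were all rows of the count tables whose symbol starts with Uqcr, with Cox and a digit, or with Atp5, which gave 59 of 48709 genes. They comprised 10 genes of complex III, 28 of complex IV and 21 of complex V, or 41 subunit genes, 9 assembly factors, 7 pseudogenes and 2 genes related to the complexes by name. RNA was taken from ventricles of E13.5 embryos, all of which carried Nkx2.5-Cre, a Cre driver active in cardiac precursor cells. Experiment 1 compared LIN9 KO with LIN9 wt in embryos with intact Sav1, with 3 libraries each. In experiment 2, the 4 combinations of LIN9 wt or KO with Sav1 wt or KO were compared, again with 3 libraries each. LIN9 KO embryos had 2 floxed Lin9 alleles (exon 7) and Sav1 KO embryos 2 floxed Sav1 alleles (exon 3). The study's results and figure legends give the LIN9 control as Lin9 fl/+ where the labels say wild-type. Cells of the ventricle outside the lineage that expressed the Cre keep the floxed gene. The study describes its LIN9 comparison as 2 biological replicates measured in triplicate, while its methods say that ventricles of each genotype gave RNA in triplicate. These sources do not settle whether the 3 libraries of a group come from separate embryos, so the p-values measure only the spread between libraries, which may be technical.

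Complex III (ubiquinol-cytochrome c reductase) passes electrons from ubiquinol to cytochrome c and complex IV (cytochrome c oxidase) passes them on to oxygen, and both pump protons across the inner mitochondrial membrane. Complex V (ATP synthase) lets the protons flow back through a membrane ring of c subunits and makes ATP in its F1 head. Most subunits are encoded in the nucleus. Several subunits of complex IV have a ubiquitous form and a form of heart and skeletal muscle, lung or testis, and the heart-type forms replace the ubiquitous ones as the heart matures.

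Total counts were 9485599 to 9615274 in experiment 1 and 2770741 to 2999877 in experiment 2. Lin9 was measured over the whole gene, which does not check the deletion of an exon; its counts were 289, 203 and 246 in LIN9 wt and 197, 203 and 187 in LIN9 KO of experiment 1. In experiment 2 they were 88, 82 and 67 in LIN9 wt and 40, 47 and 48 in LIN9 KO with Sav1 wt, and 57, 93 and 75 and 69, 74 and 52 with Sav1 KO. In experiment 1, Lin9 changed by -0.31 on the log2 scale and did not pass the edgeR test. In experiment 2 the groups were apart only with Sav1 wt, where Lin9 was lower (log2 fold change -0.80, edgeR adjusted p = 0.00269). With Sav1 KO they overlapped (-0.16, edgeR adjusted p = 0.586). Sav1 had 164, 164 and 179 counts in LIN9 wt Sav1 wt and 128, 107 and 126 in LIN9 wt Sav1 KO, which were apart (log2 fold change -0.50, edgeR adjusted p = 0.317). With LIN9 KO the counts were 158, 152 and 127 in Sav1 wt and 129, 115 and 119 in Sav1 KO, which overlapped. Scaled to library size they were apart, at 51.9, 49.8 and 47.3 against 43.9, 40.5 and 42.3 CPM (log2 fold change -0.23, edgeR adjusted p = 0.465). Sav1 thus passed the test in neither LIN9 background. The defining markers of cardiomyocytes were abundant in every library, except that Tnnc1, Actc1 and Pln were listed at 0 counts. Markers of other cells moved with the genotype. In the 3 LIN9 comparisons reported below, 9.78%, 10.5% and 11.6% of all genes were lower and 11.1%, 12.7% and 11.8% higher. The summed level of the cardiomyocyte markers was 22262 to 22724 CPM (counts scaled to library size) in LIN9 wt and 9987 to 13825 CPM in LIN9 KO of experiment 1, and 7 of the 10 markers tested fell in each of the 3 LIN9 comparisons. Erythroid markers summed to 7916 to 10959 CPM in LIN9 wt and 34879 to 90761 CPM in LIN9 KO, and 9 of 10 rose in experiment 1 and 10 of 10 in both comparisons of experiment 2. Of the 6 fibroblast and cushion markers 5, 5 and 6 rose, of the 5 epicardial markers 4 in each comparison and of the 5 macrophage markers 5, 4 and 4. Of the 6 endothelial markers 2, 2 and 3 rose and 0, 1 and 1 fell, and of the 3 smooth muscle markers 1 rose in each comparison and 0, 1 and 1 fell. The part of these shifts in the results below was not tested, and in bulk tissue fewer cells of a type and less RNA per cell cannot be told apart.

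Some members could not be read. Cox4i1, the ubiquitous form of subunit 4, Cox6a2, the heart-type form of subunit 6a, the assembly factors Cox16 and Cox17, Cox8c, Cox20-ps and Atp5l-ps2 were listed at 0 counts in all 18 libraries. For Cox4i1, Cox6a2, Cox16, Cox20-ps and Atp5l-ps2, 100% of the gene's span lies within the spans of other genes in the table, and for Cox17 it was 99.2%. Cox8c, a form known from testis, lies within none. Among members that could be read, the span lay partly within other genes for Atp5o (59.8%), Cox20 (44.5%), Cox6c (43.2%) and Atp5d (30.7%), among others. Their counts may be too low if reads there were dropped, which was not tested. No level is given for these 7 members. Cox7b2, the testis form of subunit 7b, had 0 to 4 counts per library, and no fold is given for it. The remaining members had a mean count above 1, the condition for testing, in the experiments where they were tested: 51 members in experiment 1 and 52, with Cox7b2, in experiment 2.

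The first question was which members change when LIN9 is lost. Most subunits of complexes III and V fell, as did part of those of complex IV, while 2 alternative subunits of complex IV, Cox4i2 and Cox6b2, rose. In experiment 1, 29 of 51 members were lower and 2 higher in LIN9 KO (edgeR quasi-likelihood test, p adjusted over all genes by Benjamini-Hochberg, threshold 0.05). Of all 19752 genes tested, 9.78% were lower and 11.1% higher. In experiment 2 with Sav1 wt, 32 of 52 members were lower and 2 higher, against 10.5% of all genes lower and 12.7% higher. With Sav1 KO, 34 of 52 were lower and 2 higher, against 11.6% and 11.8%. The median log2 fold change of the members, without Cox7b2, was -0.40, -0.51 and -0.49, while the median over all genes tested was 0.02, 0.01 and 0.03. The same 27 members were lower in all 3 comparisons, and the same 2 were higher. The 2 LIN9 comparisons of experiment 2 share no library but share 1 estimate of the spread.

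**Figure D1:**
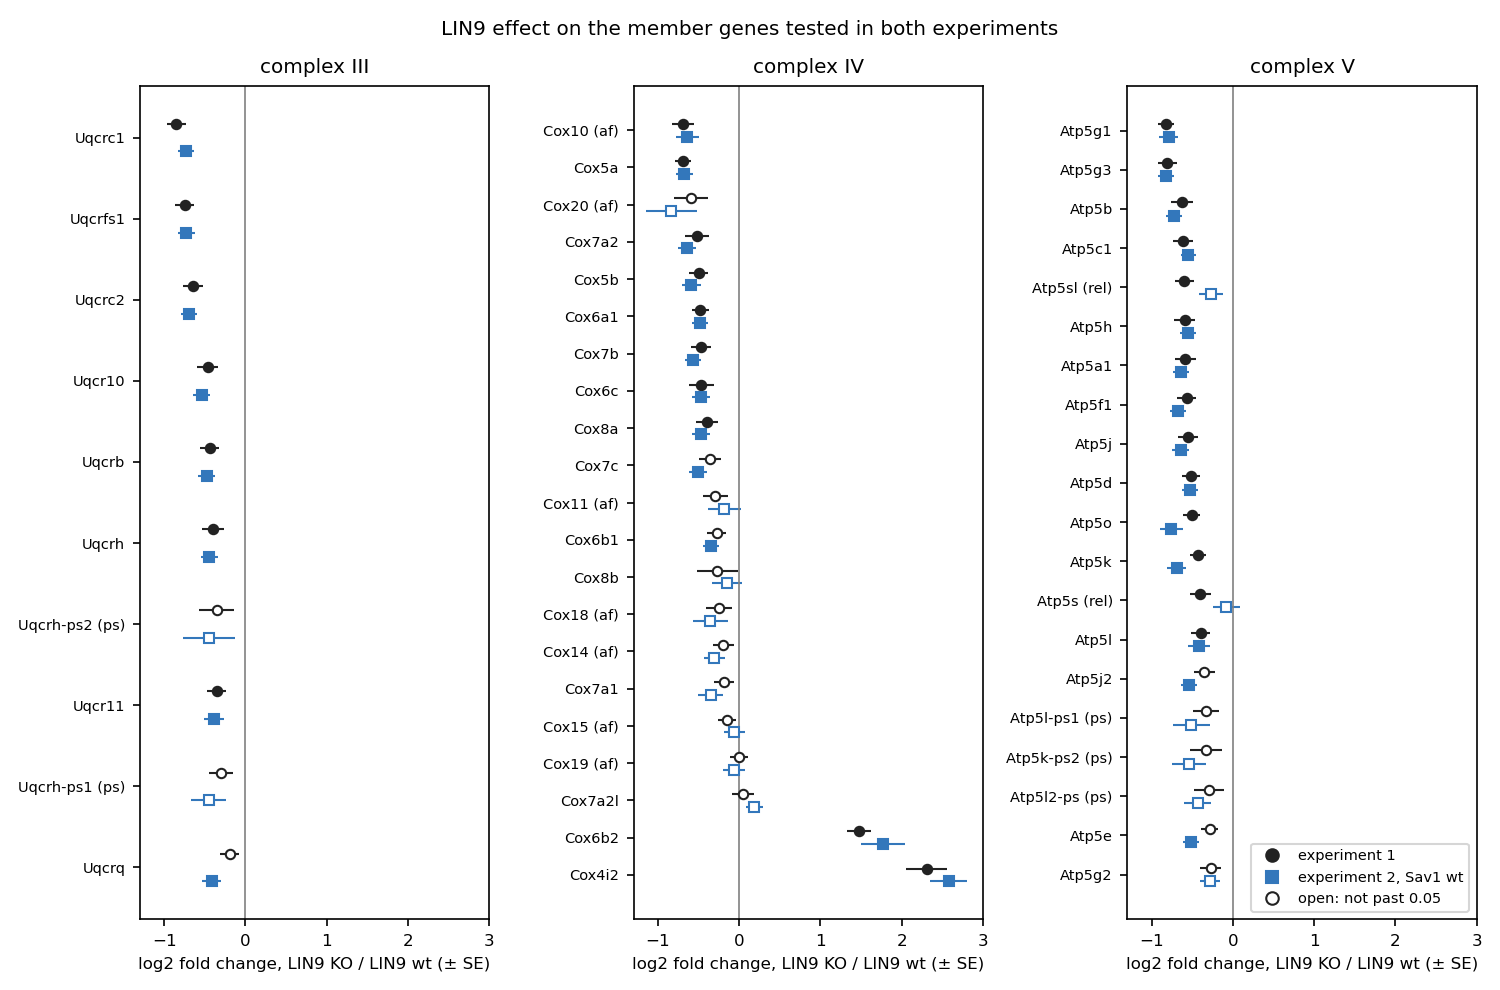
Log2 fold change (LIN9 KO over LIN9 wt, x axis, ± SE) of each member tested in both experiments, by complex; circles are experiment 1, squares experiment 2 with Sav1 wt, and filled symbols passed the adjusted threshold of 0.05 (ps, pseudogene; af, assembly factor; rel, related protein). Nearly all members lie left of 0, and Cox4i2 and Cox6b2 lie far to the right in both experiments.

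The number of lower members in experiment 1 rested in part on single libraries. Without LIN9 wt replicate 3 or without LIN9 KO replicate 1 it was 19, and without LIN9 KO replicate 3 it was 38. The 9 members gained in the last of these fits were Atp5e, Atp5g2, Atp5j2, Atp5l2-ps, Cox14, Cox6b1, Cox7c, Cox8b and Uqcrh-ps2. The calls lost in at least 1 such fit were those of Uqcr10, Uqcr11, Uqcrb, Uqcrh, Cox6c, Cox7a2, Cox7b, Cox8a, Atp5l and Atp5s. Cox6c, Cox8a and Uqcrh also missed the threshold when a mean count of at least 10 was required, and Cox8a and Uqcrh when erythroid marker genes were removed. LIN9 KO replicate 3 had the highest summed level of complex III and complex IV members of its group (1568 and 2427 CPM, against 1265 to 1308 and 1923 to 2050 CPM), the lowest of cardiomyocyte markers (9987 CPM) and the lowest of erythroid markers (34879 CPM). In experiment 2 the count stayed between 29 and 35 in either Sav1 background when each library was left out. The calls lost in at least 1 of those fits were Atp5l, Uqcr11, Uqcrq and Cox6b1 with Sav1 wt and Atp5l, Uqcr11, Uqcrq, Cox10 and Atp5sl with Sav1 KO.

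The promoters of 10 members are shown, so that members with large falls and isoform pairs can be compared by sequence. The windows, from RefSeq on GRCm38.p6, span 250 bases before to 50 after the start of the gene on its own strand, and 38 of the 59 members had one. Capitals mark matches on either strand to 5 short motifs: the NRF1 core GCGCATGC, the ERR motif AAGGTCA, the ETS motif CCGGAAG, the YY1 motif AAGATGGC and the CHR motif TTTGAA, which MuvB complexes are known to bind. Uqcrc1, Atp5g1, Atp5g3 and Cox5a had the largest falls among the subunits of their complexes, and the 3 isoform pairs of subunits 6b, 7a and 8 are those whose members could both be read. The windows lie at chr9:108936398-108936697 (plus strand) for Uqcrc1, chr11:96075582-96075881 (minus) for Atp5g1, chr2:73911277-73911576 (minus) for Atp5g3, chr9:57520982-57521281 (plus) for Cox5a, chr7:4753045-4753344 (minus) for Cox6b2, chr7:30626065-30626364 (minus) for Cox6b1, chr7:30183921-30184220 (plus) for Cox7a1, chr9:79759804-79760103 (minus) for Cox7a2, chr7:140900397-140900696 (minus) for Cox8b and chr19:7217567-7217866 (minus) for Cox8a.
Uqcrc1: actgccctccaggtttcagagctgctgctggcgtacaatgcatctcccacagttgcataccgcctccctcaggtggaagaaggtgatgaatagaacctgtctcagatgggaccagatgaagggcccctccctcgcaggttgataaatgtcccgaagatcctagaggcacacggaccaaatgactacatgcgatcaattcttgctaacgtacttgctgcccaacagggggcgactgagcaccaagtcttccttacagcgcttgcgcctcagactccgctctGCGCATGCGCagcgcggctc
Atp5g1: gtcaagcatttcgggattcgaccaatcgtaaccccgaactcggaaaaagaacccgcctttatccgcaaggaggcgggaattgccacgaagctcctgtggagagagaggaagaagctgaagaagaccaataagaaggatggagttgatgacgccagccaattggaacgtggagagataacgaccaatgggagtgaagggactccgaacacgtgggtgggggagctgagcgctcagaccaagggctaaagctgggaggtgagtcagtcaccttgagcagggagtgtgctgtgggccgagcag
Atp5g3: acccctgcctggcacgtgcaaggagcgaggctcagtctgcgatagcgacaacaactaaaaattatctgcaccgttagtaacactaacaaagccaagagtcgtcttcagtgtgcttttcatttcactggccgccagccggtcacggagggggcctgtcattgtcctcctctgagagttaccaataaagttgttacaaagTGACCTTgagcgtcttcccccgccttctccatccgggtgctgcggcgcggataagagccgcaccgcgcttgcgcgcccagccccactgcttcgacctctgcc
Cox5a: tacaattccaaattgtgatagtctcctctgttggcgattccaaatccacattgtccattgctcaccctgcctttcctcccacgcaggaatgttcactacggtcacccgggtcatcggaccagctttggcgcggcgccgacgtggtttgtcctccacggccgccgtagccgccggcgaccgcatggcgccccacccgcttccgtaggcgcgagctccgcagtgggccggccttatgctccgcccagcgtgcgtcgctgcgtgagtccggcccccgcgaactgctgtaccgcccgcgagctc
Cox6b2: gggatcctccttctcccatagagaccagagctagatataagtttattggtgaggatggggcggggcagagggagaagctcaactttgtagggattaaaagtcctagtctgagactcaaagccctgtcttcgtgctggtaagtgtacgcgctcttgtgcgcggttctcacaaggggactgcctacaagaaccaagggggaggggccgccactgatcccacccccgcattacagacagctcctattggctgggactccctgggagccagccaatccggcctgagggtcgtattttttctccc
Cox6b1: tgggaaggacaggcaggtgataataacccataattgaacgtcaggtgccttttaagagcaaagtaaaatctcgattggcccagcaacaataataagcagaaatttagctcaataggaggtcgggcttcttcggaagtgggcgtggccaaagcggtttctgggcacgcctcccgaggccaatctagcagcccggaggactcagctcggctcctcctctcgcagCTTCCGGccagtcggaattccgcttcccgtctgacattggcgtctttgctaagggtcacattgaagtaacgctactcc
Cox7a1: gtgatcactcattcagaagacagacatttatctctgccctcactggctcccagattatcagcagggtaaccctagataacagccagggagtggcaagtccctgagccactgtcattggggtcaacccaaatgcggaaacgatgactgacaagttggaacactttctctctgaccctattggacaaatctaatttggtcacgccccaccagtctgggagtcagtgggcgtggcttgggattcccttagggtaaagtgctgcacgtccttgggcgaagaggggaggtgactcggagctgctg
Cox7a2: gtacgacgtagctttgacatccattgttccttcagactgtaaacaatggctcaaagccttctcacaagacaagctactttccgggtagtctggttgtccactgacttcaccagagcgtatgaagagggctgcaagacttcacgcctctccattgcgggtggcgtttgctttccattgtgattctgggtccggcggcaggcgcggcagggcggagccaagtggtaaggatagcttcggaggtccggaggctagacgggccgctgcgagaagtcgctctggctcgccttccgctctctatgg
Cox8b: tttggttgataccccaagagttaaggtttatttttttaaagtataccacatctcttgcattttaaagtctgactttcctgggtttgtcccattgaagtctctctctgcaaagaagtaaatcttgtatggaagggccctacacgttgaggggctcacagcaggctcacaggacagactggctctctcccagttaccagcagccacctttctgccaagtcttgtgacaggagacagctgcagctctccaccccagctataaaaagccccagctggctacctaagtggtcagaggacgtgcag
Cox8a: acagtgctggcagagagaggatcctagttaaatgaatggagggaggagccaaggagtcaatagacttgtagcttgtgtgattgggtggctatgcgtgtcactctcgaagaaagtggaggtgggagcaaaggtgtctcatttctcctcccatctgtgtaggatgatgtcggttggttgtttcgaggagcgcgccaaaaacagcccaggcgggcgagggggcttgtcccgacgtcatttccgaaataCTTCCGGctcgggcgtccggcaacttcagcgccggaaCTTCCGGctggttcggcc
Uqcrc1 held overlapping NRF1 core matches on both strands just after its start, beginning 30 and 32 bases downstream. Atp5g3 held an ERR match beginning 52 bases upstream. Cox6b1 had an ETS match 28 bases upstream and Cox8a had ETS matches 5 bases upstream and 32 bases downstream, all on the reverse strand. The other 6 windows, of Atp5g1, Cox5a, Cox6b2, Cox7a1, Cox7a2 and Cox8b, held none of the 5 motifs. Members that fell were thus among those with and without a match, and the Cox7a1 and Cox7a2 pair had none in either window.

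Over all members with a window, 15 of 38 (39.5%) held the ETS motif, against 9.93% of the 27025 genes in the table. The NRF1 core was in 6 of 38 (15.8%, against 3.05%), the ERR motif in 4 (10.5%, against 5.38%), the YY1 motif in 4 (10.5%, against 3.19%) and the CHR motif in 4 (10.5%, against 20.2%). The ETS share was alike in complexes III (2 of 5), IV (8 of 20) and V (5 of 13), whereas all 4 ERR matches were in complex V. Among the 22 windows of members that were lower in both experiments with Sav1 wt, 9 held the ETS motif and 5 the NRF1 core. The ERR motif was in 3 of these, the CHR motif in 3 and the YY1 motif in 2. Among the 15 of tested members that were not, it was 5, 1, 1, 1 and 2 in the same order. These differences were not tested. A match describes the letters of the window and not a bound site.

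Among the complex III subunits that the symbol rule reaches, both core proteins and the Rieske protein had the largest falls. All 8 subunits had a negative fold change, and 7, 8 and 8 of them passed the test in experiment 1, experiment 2 with Sav1 wt and experiment 2 with Sav1 KO. The share of all genes called lower was 9.78%, 10.5% and 11.6%. Uqcrc1, core protein 1, was at 305, 358 and 349.5 CPM in LIN9 wt and at 168, 198 and 197 CPM in LIN9 KO of experiment 1, and the groups did not overlap. Its log2 fold change was -0.85 ± 0.11 (SE; edgeR adjusted p = 0.000101), and its level fell by 44.5%. In experiment 2 with Sav1 wt it was at 389.7, 343 and 371 CPM in LIN9 wt and at 256, 217 and 190.4 CPM in LIN9 KO, again without overlap (log2 fold change -0.73 ± 0.10, edgeR adjusted p = 4.18e-06). With Sav1 KO the change was -0.83 ± 0.10 (edgeR adjusted p = 6.86e-07).

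Uqcrfs1 encodes the Rieske iron-sulfur protein, which takes the first electron from ubiquinol. It was at 335, 366 and 397 CPM in LIN9 wt and 209, 203 and 242 CPM in LIN9 KO of experiment 1, a log2 fold change of -0.75 ± 0.11 (edgeR adjusted p = 0.000295). The 3 KO libraries all lay below the lowest wt library. Uqcrc2, core protein 2, changed by -0.65, -0.69 and -0.57 on the log2 scale in the 3 comparisons, with the groups apart in each. The small subunits Uqcr10, Uqcrb, Uqcrh and Uqcr11, which surround the core, had changes between -0.35 and -0.54 and passed in all 3 comparisons. In experiment 1, the calls of Uqcrh and Uqcr11 were lost when any library but LIN9 KO replicate 3 was left out. Those of Uqcr10 and Uqcrb were lost without LIN9 wt replicate 3 or LIN9 KO replicate 1 or 2. Uqcrq, known as a ubiquinone-binding subunit, had the smallest change of the subunits in experiment 1. It was at 149, 148 and 175 CPM in LIN9 wt and 136, 122 and 156 CPM in LIN9 KO (log2 fold change -0.19 ± 0.12, edgeR adjusted p = 0.286), and here the groups overlapped. In experiment 2 it was lower by -0.42 ± 0.12 (edgeR adjusted p = 0.0087) and -0.37 ± 0.12 (edgeR adjusted p = 0.0202). The call with Sav1 wt was lost without LIN9 wt replicate 1. That with Sav1 KO was lost without replicate 2 or 3 of either LIN9 group, 4 of the 6 fits, where the log2 fold change was between -0.34 and -0.28.

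In complex V, nearly all subunits fell. All 15 had a negative fold change in each LIN9 comparison, with 12, 14 and 15 past the test and a median log2 fold change of -0.55, -0.64 and -0.61. Among all genes, 9.78%, 10.5% and 11.6% were lower. Atp5b, the catalytic beta subunit, was at 3064, 3453 and 3076 CPM in LIN9 wt and 1969, 2125 and 2098 CPM in LIN9 KO of experiment 1, with no overlap. Its log2 fold change was -0.63 ± 0.13 (edgeR adjusted p = 0.00322). In experiment 2 it was at 3384, 2959 and 3001 CPM in LIN9 wt Sav1 wt, 2132, 1759 and 1747 CPM in LIN9 KO Sav1 wt, 3122, 2987 and 3114 CPM in LIN9 wt Sav1 KO and 1824, 1737 and 1826 CPM in LIN9 KO Sav1 KO. The groups thus fell into a high LIN9 wt and a low LIN9 KO level in either Sav1 background. The other head subunits, alpha (Atp5a1), gamma (Atp5c1) and delta (Atp5d), changed by -0.52 to -0.72. The epsilon subunit Atp5e changed by -0.29 (edgeR adjusted p = 0.0737) in experiment 1 and by -0.52 and -0.46 in experiment 2, where it passed.

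Subunit c is encoded by 3 genes, Atp5g1, Atp5g2 and Atp5g3, whose mature proteins are the same. Atp5g1 and Atp5g3 fell in all 3 comparisons, and Atp5g2 passed in 1 of them with all libraries; the difference between the genes was not tested. Atp5g3 was at 683, 773 and 801 CPM in LIN9 wt and 405, 445 and 437 CPM in LIN9 KO of experiment 1. Atp5g1 was at 158, 162 and 180.3 CPM in LIN9 wt and 98.2, 87.0 and 97.1 CPM in LIN9 KO. These were the largest changes in complex V, with log2 fold changes of -0.81 ± 0.12 for Atp5g3 and -0.83 ± 0.10 for Atp5g1 (edgeR adjusted p = 0.00018 and 5.61e-05), and of -0.79 to -0.88 in experiment 2. Atp5g2 was at 63.8, 68.4 and 74.2 CPM in LIN9 wt and 49.7, 51.3 and 69.7 CPM in LIN9 KO, and its groups overlapped. Its change was -0.27 ± 0.13 (edgeR adjusted p = 0.154), -0.28 ± 0.12 (0.0992) and, with Sav1 KO, -0.49 ± 0.12 (0.00425). Without LIN9 KO replicate 3, Atp5g2 passed in experiment 1 as well, at -0.45 (edgeR adjusted p = 0.00362). The share of Atp5g2 in the counts of the 3 genes was 6.97% ± 0.13 (SD, n = 3) in LIN9 wt and 9.77% ± 1.54 in LIN9 KO of experiment 1, and 7.20% ± 0.29 and 10.3% ± 1.49 in experiment 2 with Sav1 wt; this difference in share was not tested. Atp5g3 kept 72.4 to 77.8% of the counts in every library. The shares do not allow for annotated exon length, which is 4912 bases in Atp5g1, 1675 in Atp5g2 and 2181 in Atp5g3.

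The peripheral stalk, which holds the head still, and the membrane subunits fell with the rest. Atp5f1 (subunit b), Atp5h (subunit d), Atp5j (factor 6) and Atp5o (OSCP) changed by -0.51 to -0.76 and passed in all 3 comparisons. Atp5o was at 65.2, 66.8 and 73.5 CPM in LIN9 wt and 44.7, 46.8 and 52.9 CPM in LIN9 KO of experiment 1; 47.9% of its exonic length also lies under other genes. Of the membrane subunits, Atp5k and Atp5l passed in all 3 comparisons, though Atp5l was lost with DESeq2 in experiment 2 with Sav1 wt, and Atp5j2 in both of experiment 2 (edgeR adjusted p = 0.0665 in experiment 1).

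In complex IV, some subunits fell, some did not pass the test and 2 rose. Of its 18 subunit genes, 14 were tested in experiment 1 and 15, with Cox7b2, in experiment 2, and 7, 9 and 9 were lower and 2 higher in the 3 LIN9 comparisons. Among all genes, 9.78%, 10.5% and 11.6% were lower and 11.1%, 12.7% and 11.8% higher. Cox5a, a subunit on the matrix side of the complex, had the largest fall among the subunits. It was at 179.6, 202 and 196 CPM in LIN9 wt and 118, 123 and 118 CPM in LIN9 KO of experiment 1 (log2 fold change -0.69 ± 0.10, edgeR adjusted p = 0.000187). With Sav1 wt in experiment 2 it was at 171, 186 and 179 CPM in LIN9 wt and 134, 104 and 97.6 CPM in LIN9 KO (-0.67 ± 0.11, edgeR adjusted p = 3.16e-05). The groups were apart in both experiments. Cox5b, the zinc-binding subunit, changed by -0.50, -0.59 and -0.63, Cox6c by -0.47, -0.47 and -0.53 and Cox7b by -0.47, -0.57 and -0.51, all past the test. In experiment 1, the call of Cox6c was lost when any library but LIN9 KO replicate 3 was left out. That of Cox7b was lost without LIN9 wt replicate 3 or LIN9 KO replicate 1. Cox7c changed by -0.36 (edgeR adjusted p = 0.0784) in experiment 1 and passed in experiment 2 at -0.51 and -0.49.

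The isoform families of complex IV were compared gene by gene. Cox4i2 is the alternative form of subunit 4 known from lung and from low oxygen, and it had the largest change of all members. It was at 4.63, 5.48 and 5.19 CPM (45, 52 and 50 counts) in LIN9 wt and at 18.3, 21.5 and 36.0 CPM in LIN9 KO of experiment 1. In experiment 2 it was at 4.98, 5.48 and 4.84 CPM in LIN9 wt Sav1 wt, from 14 to 16 counts, and at 29.2, 35.7 and 26.8 CPM in LIN9 KO Sav1 wt. It was at 5.72, 5.74 and 6.14 CPM in LIN9 wt Sav1 KO and at 14.6, 25.3 and 15.6 CPM in LIN9 KO Sav1 KO. All 9 LIN9 KO libraries lay above all 9 LIN9 wt libraries. The rise was 4.95-fold in experiment 1 (log2 fold change 2.31 ± 0.25, edgeR adjusted p = 9.21e-05), 5.97-fold in experiment 2 with Sav1 wt (2.58 ± 0.23, edgeR adjusted p = 3.33e-09) and 3.14-fold with Sav1 KO (1.65 ± 0.24, edgeR adjusted p = 8.84e-06). Its ubiquitous partner Cox4i1 is listed at 0, so the share of the 2 forms is not known here.

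Cox6b2 is the testis form of subunit 6b, which joins the monomers of the complex IV dimer, and Cox6b1 is the ubiquitous form. Cox6b2 was at 7.21, 8.85 and 6.54 CPM in LIN9 wt and 20.6, 21.7 and 20.6 CPM in LIN9 KO of experiment 1. In experiment 2 it was at 4.65, 10.6 and 5.88 CPM in LIN9 wt Sav1 wt and 19.0, 24.6 and 28.7 CPM in LIN9 KO Sav1 wt. It rose 2.78-fold, 3.40-fold and, with Sav1 KO, 2.63-fold (log2 fold changes 1.47 ± 0.15, 1.77 ± 0.27 and 1.39 ± 0.27, edgeR adjusted p = 1.12e-05, 3.56e-05 and 0.000544). Cox6b1, the promoter of which is printed above beside that of Cox6b2, was at 304, 326 and 327 CPM in LIN9 wt and 253, 235 and 301 CPM in LIN9 KO of experiment 1. It changed by -0.28 ± 0.12 (edgeR adjusted p = 0.107) there and by -0.35 ± 0.10 and -0.37 ± 0.10 in experiment 2 (edgeR adjusted p = 0.0115 and 0.00775). Even after its rise, Cox6b2 stayed the minor form. It made up 6.39 to 8.47% of the counts of both genes in LIN9 KO of experiment 1, against 1.96 to 2.65% in LIN9 wt. In experiment 2 it made up 6.74 to 11.9% in LIN9 KO and 1.42 to 3.58% in LIN9 wt with Sav1 wt. With Sav1 KO the shares were 6.55 to 8.97% and 1.48 to 3.79%. Such shares of counts do not allow for the annotated exon length, which is 1108 bases in Cox6b2 and 708 in Cox6b1.

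**Figure D2:**
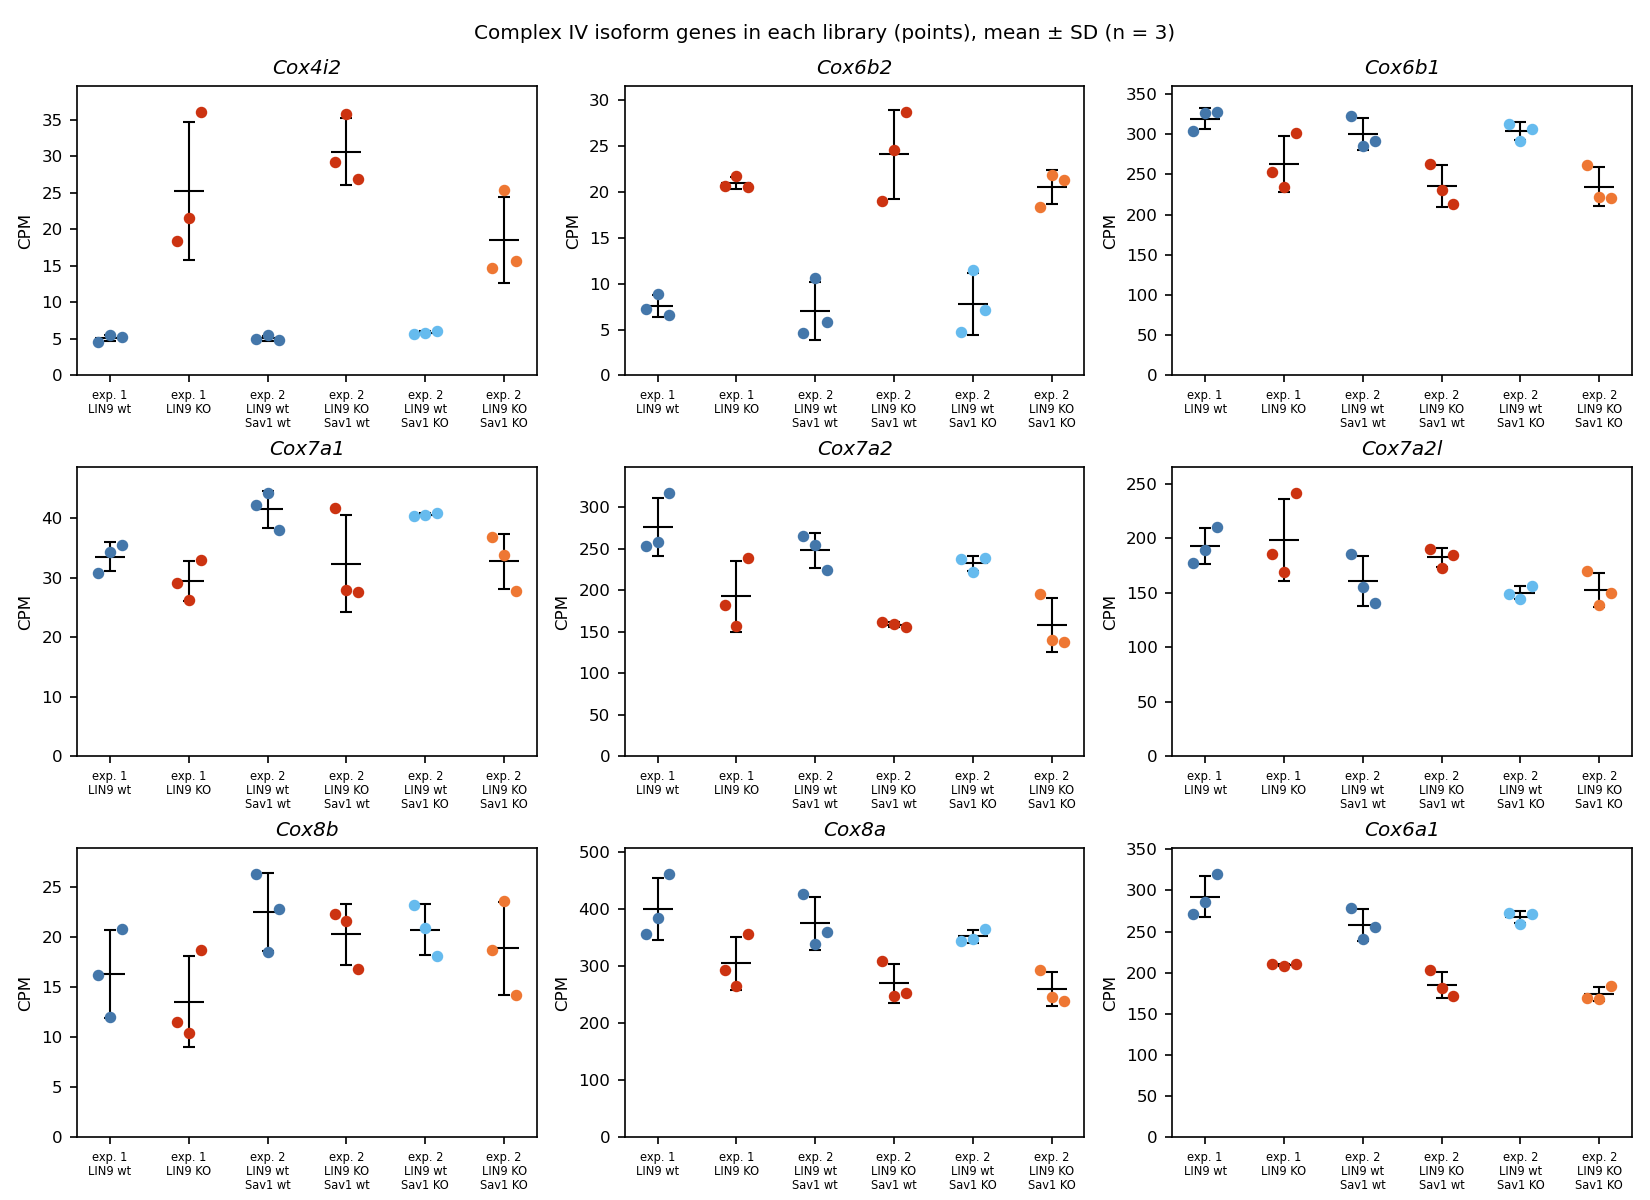
CPM (y axis, from 0) of complex IV isoform genes in each of the 18 libraries (points) by genotype group (x axis), with mean ± SD (n = 3). Cox4i2 and Cox6b2 are higher in every LIN9 KO library than in any LIN9 wt library, and heart-type Cox7a1 and Cox8b overlap between LIN9 wt and LIN9 KO in experiment 1.

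The heart-type forms were the question for subunits 6a, 7a and 8. The ubiquitous forms fell, and the heart-type forms that could be read, Cox7a1 and Cox8b, did not pass the test in any LIN9 comparison with all libraries. Cox7a1 had 74 to 341 and Cox8b 40 to 200 counts a library, against 389 to 3049 for Cox7a2 and 673 to 4444 for Cox8a. Since fewer counts make a change harder to detect, passing and not passing do not by themselves set the forms apart. Ubiquitous Cox7a2 was at 253, 258 and 317 CPM in LIN9 wt and 182, 156 and 239 CPM in LIN9 KO of experiment 1 (log2 fold change -0.52 ± 0.15, edgeR adjusted p = 0.0235), and it changed by -0.64 ± 0.11 and -0.56 ± 0.11 in experiment 2. Heart-type Cox7a1 was at 30.8, 34.4 and 35.4 CPM in LIN9 wt and 29.1, 26.3 and 33.0 CPM in LIN9 KO of experiment 1, with overlapping groups. Its changes were -0.19 ± 0.12, -0.35 ± 0.15 and -0.31 ± 0.15 (edgeR adjusted p = 0.314, 0.0994 and 0.154). With Sav1 KO, Cox7a1 had 120 counts in each LIN9 wt library and 108, 96 and 78 in LIN9 KO, without overlap. In experiment 2 with Sav1 wt, LIN9 KO replicate 1 was at 41.7 CPM and replicates 2 and 3 at 27.9 and 27.6 CPM; without replicate 1, Cox7a1 passed the test at -0.60.

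Ubiquitous Cox8a was at 357, 385 and 462 CPM in LIN9 wt and 293, 266 and 357 CPM in LIN9 KO of experiment 1 (log2 fold change -0.39 ± 0.13, edgeR adjusted p = 0.0487), and changed by -0.47 ± 0.11 and -0.44 ± 0.11 in experiment 2. Heart-type Cox8b was at 16.2, 12.01 and 20.8 CPM in LIN9 wt and 11.5, 10.4 and 18.7 CPM in LIN9 KO. Its changes of -0.27 ± 0.25, -0.15 ± 0.19 and -0.14 ± 0.19 (edgeR adjusted p = 0.524, 0.64 and 0.669) did not pass, and without LIN9 KO replicate 3 of experiment 1 Cox8b passed at -0.58 (edgeR adjusted p = 0.0422). The call of Cox8a in experiment 1 was lost when any library but LIN9 KO replicate 3 was left out. Cox6a1, the ubiquitous subunit 6a, was at 271, 287 and 319.6 CPM in LIN9 wt and 211, 208 and 210.3 CPM in LIN9 KO (-0.48 ± 0.11, edgeR adjusted p = 0.00421) and fell in all 3 comparisons; its heart-type partner Cox6a2 is listed at 0. Cox7a2l, a relative of Cox7a2 that takes part in respiratory supercomplexes, was at 178, 189.6 and 210.5 CPM in LIN9 wt and 186, 169 and 241 CPM in LIN9 KO, and its changes of 0.05, 0.18 and 0.03 did not pass.

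The balance of heart-type and ubiquitous forms was measured by the log2 ratio of their counts within each library, which does not depend on scaling. The Cox7a1/Cox7a2 ratio was -3.04, -2.91 and -3.16 in LIN9 wt and -2.65, -2.57 and -2.86 in LIN9 KO of experiment 1. The mean was higher by 0.34 in LIN9 KO, and by 0.26 in each Sav1 background of experiment 2, with no overlap in any of the 3 comparisons. In experiment 2 this rested on single libraries, being 0.0784 without LIN9 KO Sav1 wt replicate 1 and 0.154 without LIN9 KO Sav1 KO replicate 2. The Cox8b/Cox8a ratio was higher by 0.11, 0.33 and 0.29, with overlap in experiment 1 and with Sav1 KO. In experiment 1 it turned to -0.027 without LIN9 KO replicate 3 and to -0.0634 without LIN9 wt replicate 2. It was 0.215 with Sav1 wt without LIN9 KO replicate 2, and with Sav1 KO 0.0781 without LIN9 KO replicate 2 and 0.17 without LIN9 wt replicate 3. The Cox6b2/Cox6b1 ratio, added after the rise of Cox6b2 was seen, was higher by 1.77, 2.17 and 1.84 without overlap. With 3 libraries against 3, a two-sided exact permutation test cannot give a p below 0.1, which was the exact p of every ratio without overlap, and 0.214 after Benjamini-Hochberg adjustment over the 15 ratio comparisons. Heart-type Cox7a1 stayed the minor form, at 10.1 to 11.7% of the counts of both genes in LIN9 wt and 12.1 to 14.4% in LIN9 KO of experiment 1. Cox8b made up 3.03 to 4.33% and 3.76 to 4.98%. These are shares of counts and do not allow for length. Annotated exons cover 535 bases in Cox7a1 and 944 in Cox7a2, and 360 in Cox8b and 619 in Cox8a, so shares per length would be higher.

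**Figure D3:**
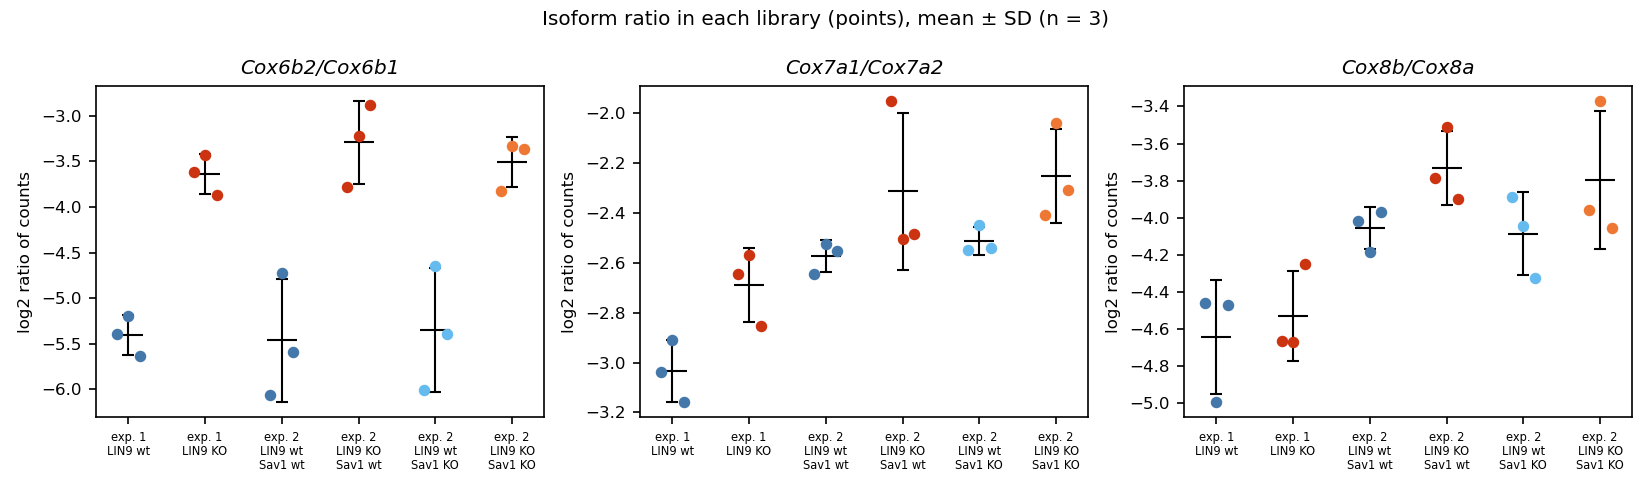
Log2 ratio of the counts of 2 isoform genes (y axis) within each library (points), by genotype group (x axis), with mean ± SD (n = 3). The Cox6b2/Cox6b1 ratio separates LIN9 KO from LIN9 wt most, and the heart-type to ubiquitous ratios of subunits 7a and 8 are shifted by at most 0.34 on average.

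Of the 7 tested assembly factors of complex IV, 1 was lower in each LIN9 comparison, against 9.78%, 10.5% and 11.6% of all genes. This was Cox10, the enzyme that makes heme O from heme B. It was at 38.1, 42.4 and 35.0 CPM in LIN9 wt and 24.4, 27.7 and 19.5 CPM in LIN9 KO of experiment 1 (log2 fold change -0.69 ± 0.13, edgeR adjusted p = 0.00186), with no overlap. In experiment 2 it changed by -0.64 ± 0.14 (edgeR adjusted p = 0.0012) and, with Sav1 KO, by -0.43 ± 0.14 (edgeR adjusted p = 0.0212), a call lost with DESeq2 and without LIN9 wt replicate 1 or 2 or LIN9 KO replicate 2. Cox15, the next enzyme of heme A synthesis, was at 64.8, 74.9 and 63.8 CPM in LIN9 wt and 59.0, 68.9 and 55.9 CPM in LIN9 KO, with overlap, and changed by -0.15, -0.06 and -0.18 (edgeR adjusted p = 0.403, 0.794 and 0.341). Cox19, a copper-related factor of the intermembrane space, had the fold change nearest 0 in experiment 1, at 36.6, 38.9 and 46.0 CPM in LIN9 wt and 38.8, 38.9 and 43.6 CPM in LIN9 KO. Cox11, Cox14 and Cox18, which serve copper insertion and the handling of the mitochondrially encoded subunits, had log2 fold changes of -0.14 to -0.39 and did not pass, although Cox14 did without LIN9 KO replicate 3 in experiment 1 and without LIN9 KO replicate 1 in experiment 2 with Sav1 wt. Cox20, a chaperone of subunit 2, was at 7.83, 6.01 and 7.58 CPM in LIN9 wt and 4.23, 5.98 and 4.01 CPM in LIN9 KO; it changed by -0.59 (edgeR adjusted p = 0.0585) in experiment 1 and by -0.84 (edgeR adjusted p = 0.0559) in experiment 2 with Sav1 wt. With the replicate number as a block, the latter was -0.82 (edgeR adjusted p = 0.0452). Cox20 also passed in experiment 1 without LIN9 KO replicate 2 (edgeR adjusted p = 0.0224) and in experiment 2 with Sav1 wt without LIN9 wt replicate 1 (edgeR adjusted p = 0.0335). With no filter on low counts it passed in these 2 comparisons (edgeR adjusted p = 0.0395 and 0.0445). In experiment 1 it passed with total counts and with the block as well (edgeR adjusted p = 0.0499 and 0.0458). With Sav1 KO it changed by -0.44 ± 0.30 (edgeR adjusted p = 0.321), and by -0.64 to -0.13 without single libraries. Counts of Cox20 and Cox11 may be affected by overlap, since 91.1% of the exonic length of Cox20 lies under Hnrnpu and 48.3% of that of Cox11 under Tom1l1. Whether reads there were dropped or counted is not given, and the members lying wholly within other genes were listed at 0.

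The 2 genes related by name passed the test in experiment 1, Atp5s near its threshold. Atp5s, also known as coupling factor B, was at 22.6, 21.6 and 27.0 CPM in LIN9 wt and 16.3, 19.0 and 18.6 CPM in LIN9 KO of experiment 1 (log2 fold change -0.40 ± 0.13, edgeR adjusted p = 0.0445). That call was lost with DESeq2 (adjusted p = 0.0816) and when any library but LIN9 KO replicate 3 was left out. In experiment 2 its changes were -0.08 ± 0.17 and 0.31 ± 0.16, neither past the test. Atp5sl, which is known as an assembly factor of complex I, changed by -0.60 ± 0.12 (edgeR adjusted p = 0.00226), -0.27 ± 0.15 (0.192) and -0.41 ± 0.15 (0.0401), the last of which was lost with DESeq2 and in 4 of the 6 fits without a library (LIN9 wt replicates 1 and 3, LIN9 KO replicates 1 and 2). The 5 pseudogenes with counts had log2 fold changes of -0.30 to -0.88 in LIN9 KO, and none passed the test in the main fit. Uqcrh-ps1 changed by -0.30, -0.45 and -0.49, and passed with Sav1 KO without LIN9 wt replicate 2, at -0.69 (edgeR adjusted p = 0.0296). Atp5l-ps1 passed with Sav1 wt without LIN9 wt replicate 3. Atp5l2-ps passed with Sav1 KO with only the groups compared, and it and Uqcrh-ps2 also passed without some single libraries. Atp5l2-ps with Sav1 wt (adjusted p = 0.052) and Uqcrh-ps2 with Sav1 KO (0.0597) were near the edgeR threshold and passed with no filter and with the replicate block, the former also with DESeq2 size factors, with a mean count of at least 10 and with erythroid marker genes removed, and the latter with only the groups compared. Their reads may include reads of the parent genes, and how reads with several matches were counted is not given in the sources used here.

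Other genes of the same pathways, from a list of assembly factors, partners and mitochondrially encoded subunits, were counted in the same fits. Of the 8 genes of the complex III list, 5, 4 and 5 were lower and none higher. Cyc1, the cytochrome c1 subunit, whose symbol the rule does not reach, had a larger fall than any member that passed, at -1.05 ± 0.11, -1.15 ± 0.11 and -1.11 ± 0.11 (edgeR adjusted p = 1.02e-05, 9.68e-09 and 2.12e-08). Cycs, cytochrome c, fell by -0.76, -1.05 and -0.84. Of the 15 genes tested on the complex IV list, 7, 6 and 9 were lower, and Higd1a, a hypoxia-induced partner of the respiratory chain, was higher in each (0.54, 0.50 and 0.44). Of the 7 genes of the complex V list, 5, 5 and 4 were lower, among them Fmc1, which serves assembly of the head, at -0.86 and -1.06 with Sav1 wt, whereas the inhibitor Atpif1 changed by -0.05, -0.05 and -0.12 and did not pass. Of the 6 mitochondrially encoded subunits, 1, 6 and 2 were lower. mt-Cytb of complex III changed by -0.37 ± 0.16 (edgeR adjusted p = 0.124) in experiment 1 and by -0.80 ± 0.15 (edgeR adjusted p = 0.000832) in experiment 2 with Sav1 wt.

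The summed level of each complex was lower in LIN9 KO, without overlap in experiment 1, and the ratio was nearer 1 than that of the cardiomyocyte markers; the difference was not tested. Complex III members summed to 1905, 2014 and 2234 CPM in LIN9 wt and 1308, 1265 and 1568 CPM in LIN9 KO of experiment 1, a mean ratio of 0.673. Complex V members summed to 8429, 9290.4 and 9017 CPM and to 5653, 5945 and 6043 CPM, a ratio of 0.660. Complex IV members summed to 2524, 2644 and 3019 CPM and to 2050.0, 1923 and 2427 CPM, a ratio of 0.782. The same ratio of the cardiomyocyte markers was 0.510. In experiment 2 with Sav1 wt the ratios were 0.659, 0.631 and 0.763 for complexes III, V and IV and 0.500 for the markers. Per CPM of cardiomyocyte markers, complex IV members stood at 0.113 to 0.133 in LIN9 wt and 0.139 to 0.243 in LIN9 KO of experiment 1, complex III members at 0.0856 to 0.0983 and 0.0915 to 0.157, and complex V members at 0.379 to 0.409 and 0.430 to 0.605. Other cells of the ventricle also contribute RNA of these complexes, so the ratios do not give a level per cardiomyocyte.

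**Figure D4:**
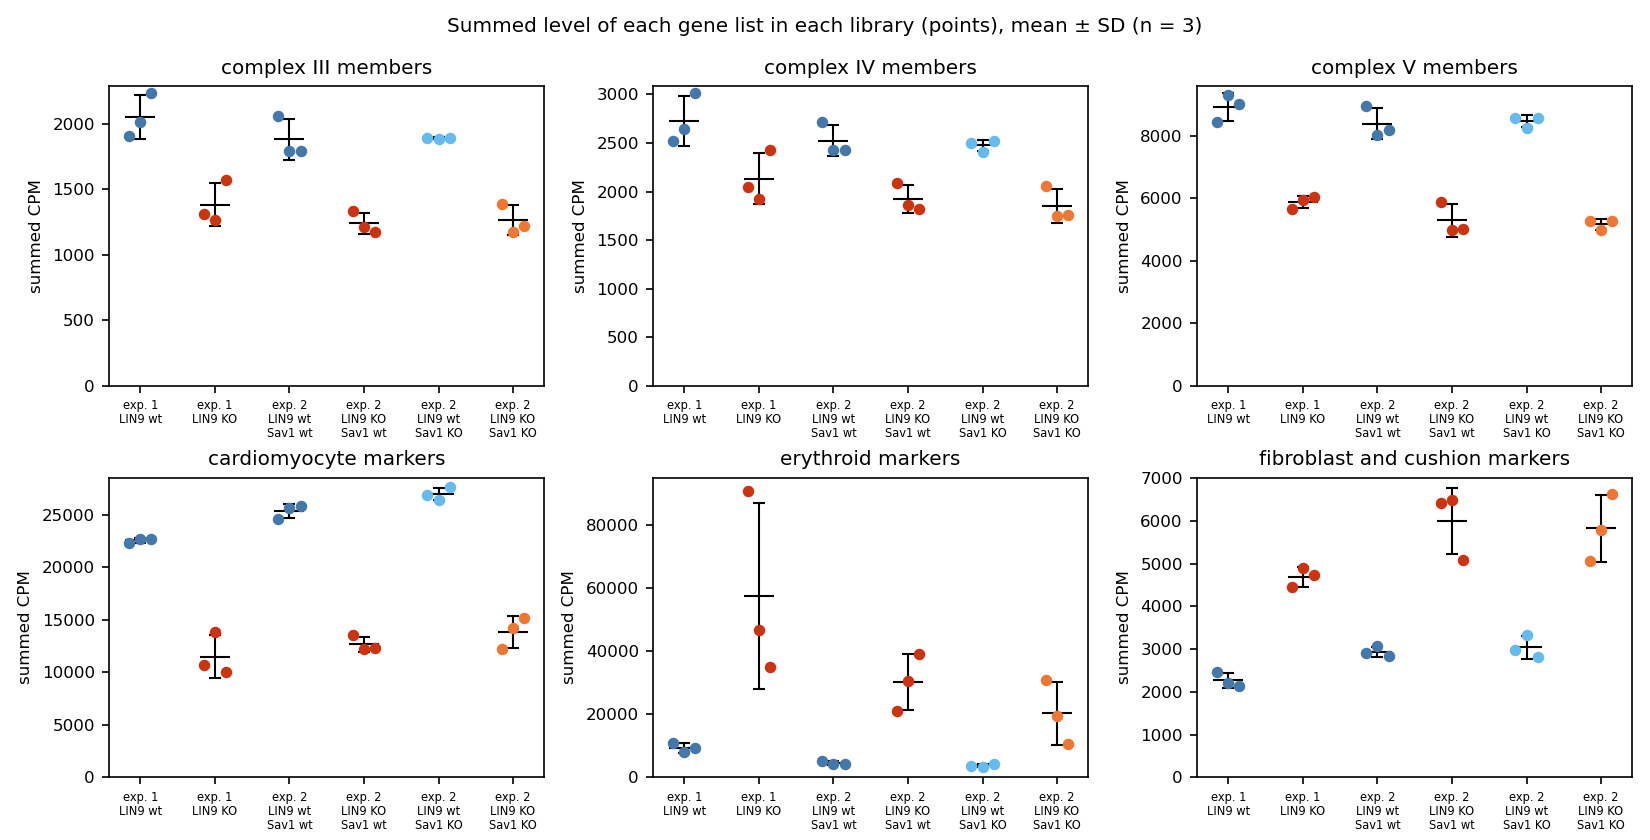
Summed CPM (y axis, from 0) of the members of each complex and of 3 marker lists in each library (points) by genotype group (x axis), with mean ± SD (n = 3). The complexes and the cardiomyocyte markers are lower in LIN9 KO in both experiments, and erythroid and fibroblast markers are higher.

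The second question was whether loss of Sav1, a scaffold of the Hippo kinases, alters the members or their response to LIN9. No member passed the test of Sav1 in either LIN9 background. In LIN9 wt, 0 of 52 members passed edgeR's test, 0 had an unadjusted p under 0.05 and 0 passed DESeq2. Of all genes, edgeR called 0.017%, and 3.93% had an unadjusted p under 0.05. The median log2 fold change of the members without Cox7b2 was 0.00. In LIN9 KO, 0 members passed edgeR, against 0.0113% of all genes (2 genes), and 0 passed DESeq2, which called 77 genes. An unadjusted p under 0.05 was found for 3 members, against 11.8% of all genes, and the members' median was -0.02. Those 3 were Cox4i2, Cox7a2l and Atp5s. Cox4i2 was lower in LIN9 KO Sav1 KO than in LIN9 KO Sav1 wt by -0.73 ± 0.19 (edgeR adjusted p = 0.136; unadjusted 0.000622), and the highest of the former, 25.3 CPM, lay below the lowest of the latter, 26.8 CPM. Cox4i2 passed without LIN9 KO Sav1 wt replicate 3, without LIN9 KO Sav1 KO replicate 2, with no filter on low counts and with the replicate block. Cox7a2l was at 190.1, 173 and 185 CPM in LIN9 KO Sav1 wt and 169.6, 139 and 150.1 CPM in LIN9 KO Sav1 KO (-0.26 ± 0.11, edgeR adjusted p = 0.331).

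The interaction, the Sav1 effect in LIN9 KO minus that in LIN9 wt, called 0 of 52 members by edgeR and 0 by DESeq2. Of all genes, edgeR called 0%. In simulated counts the edgeR test of the interaction recovered 52% of changes of 1 on the log2 scale, so differences can be missed. An unadjusted p under 0.05 was found for 1 member, against 6.52% of all genes. This was Cox4i2, at -0.93 ± 0.36 (edgeR adjusted p = 0.68). The Atp5b levels given above lay in a high and a low range by LIN9 in either Sav1 background. For Uqcrc1, LIN9 wt libraries were at 343 to 389.7 CPM with Sav1 wt and 390.0 to 399 CPM with Sav1 KO, and LIN9 KO libraries at 190.4 to 256 and 213 to 236 CPM. The 6 mitochondrially encoded subunits all had an unadjusted p under 0.05 in the Sav1 comparison within LIN9 KO, with changes of 0.29 to 0.54, against 11.8% of all genes, and none passed after adjustment.

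**Figure D5:**
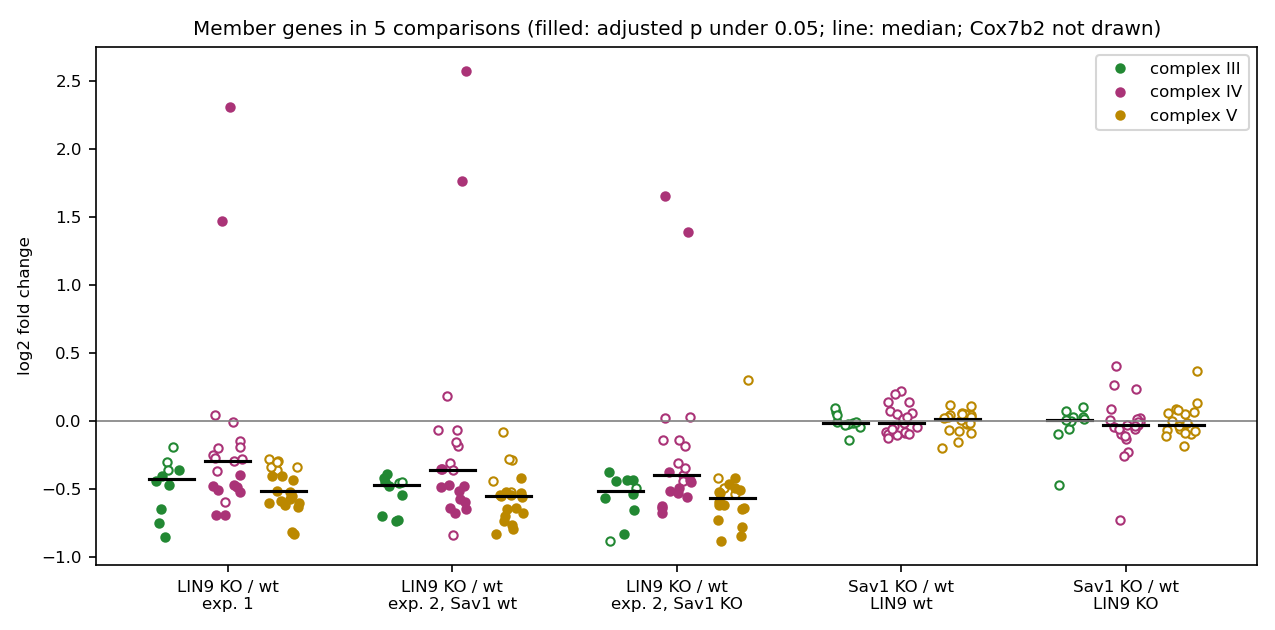
Log2 fold change (y axis) of each member in the 3 LIN9 and the 2 Sav1 comparisons (x axis), coloured by complex; filled points passed the adjusted threshold of 0.05, lines are medians, and Cox7b2 is not drawn because its counts are at the floor. Most points lie below 0 in the LIN9 comparisons, Cox4i2 and Cox6b2 stand far above it, and points lie around 0 in the Sav1 comparisons.

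The LIN9 effect was measured in 2 experiments that share no library, and experiment 2 is taken here with Sav1 wt. All 51 members tested in both had the same sign, 27 were lower in both and 2 higher in both. With Sav1 KO, Atp5s (0.31 against -0.40 in experiment 1) and Cox19 (0.0321 against -0.00159) had the opposite sign. The sign of Cox19, Cox7a2l and Cox15, whose changes were near 0, turned in at least 1 experiment under other settings or without single libraries. Of all 17656 genes tested in both, 13697 had the same sign, 6.77% were lower in both and 8.07% higher in both. A test of the difference between the experiments called 0 of 51 members by edgeR and 0 by DESeq2, and edgeR called 0% of all genes. In simulated counts the edgeR test recovered 51% of such differences of 1 on the log2 scale, so differences can be missed. An unadjusted p under 0.05 was found for 0 members, against 5.19% of all genes. The largest differences were in Atp5sl and Atp5s, at 0.32 ± 0.20 and 0.31 ± 0.21 (SE, log2 scale).

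Levels between genes were compared per kb of annotated exon, in LIN9 wt of experiment 1. Complex V was led by Atp5b at 755 ± 52.1 CPM per kb (SD, n = 3) and Atp5a1 at 706 ± 63.6, which did not differ beyond their spread, and then by Atp5g3 at 345 ± 28.4 and Atp5c1 at 316 ± 28.8, which likewise overlapped. Atp5g2 and Atp5g1 were at 41.1 ± 3.09 and 33.9 ± 2.42 CPM per kb. Complex IV was led by Cox8a at 648 ± 87.5, Cox6b1 at 451 ± 18.3 and Cox6a1 at 417 ± 35.3. Heart-type Cox7a1 and Cox8b were at 62.7 ± 4.53 and 45.3 ± 12.2, and Cox6b2 and Cox4i2 at 6.80 ± 1.07 and 6.48 ± 0.55. In complex III, Uqcr10 led at 356 ± 42.0, and Uqcrc1, with the largest fall, was at 81.6 ± 6.90, within the spread of Uqcrq at 86.0 ± 8.42. Annotated exons that these cells do not use lower such values.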

How the data were processed

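RNA libraries of 18 samples were used; 4 ChIP samples were not analysed here. Per the study's methods, the authors aligned reads to mm10 with TopHat and Bowtie 2, normalized samples to the one with fewest mappable reads, in a way not given further, so that the totals are nearly equal and may not show the original depth, and deposited whole-number counts per Ensembl gene from summarizeOverlaps. The overlap mode, strand setting and handling of reads with several matches are not given in the sources used here. The authors' comparison tables (log2 fold change, log2 CPM, p-value, FDR) were not used. Genes with a mean count above 1 were tested with edgeR 4.0.16 (TMM, robust quasi-likelihood) in R 4.3.3, each experiment in 1 fit, with Benjamini-Hochberg adjustment over all genes and a threshold of 0.05. CPM were scaled by library totals and TMM factors. DESeq2 1.42.0, other filters and scalings, a replicate block and leaving out each library were alternatives. Isoform ratios used an offset of 0.5 counts. The edgeR test was checked on simulated counts with known changes. Of genes changed by 1 on the log2 scale, it recovered 84 to 94% in the comparisons of 2 groups. It recovered 52% for the interaction and 51% for the difference between experiments. Smaller changes, as most members had, were not simulated. Members named with values were mostly chosen by a rule. It took the isoform families and subunit c, members higher in LIN9 KO, and members past a test of Sav1, the interaction or the experiments. Among members with at least 5 CPM, it took the 3 largest and 2 smallest LIN9 changes in each complex and experiment. Cox5a, the complex IV subunit with the largest fall, was given values outside this rule. Uqcrh-ps1, which the rule took, is given with the other pseudogenes. Other members are named in the summaries by role, a choice made after their values were seen. Members and lists were chosen with earlier results of these data known.

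Same-numbered libraries were checked for pairing by the correlation of their deviations from the group means. Over all genes tested, these were 0.0891 to 0.393 for LIN9 wt and KO with Sav1 wt in experiment 2, and over genes with a mean count of at least 10 they were 0.216 to 0.599, the latter floor being chosen after these correlations were seen. In experiment 1 they were 0.0267 to 0.0873 and 0.0433 to 0.179. Differently numbered libraries were close to this in experiment 2 with Sav1 wt, at a mean count of at least 10. LIN9 wt replicate 2 with LIN9 KO replicate 3 gave 0.264, and replicate 3 with replicate 2 gave 0.213. The same-numbered values were 0.216 for replicate 2 and 0.312 for replicate 3, so apart from replicate 1 the numbers did not set pairs apart.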

Additional observations from a re-analysis of the deposited data

How the results depend on the processing

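The counts of members lower or higher with LIN9 loss stayed within 1.5 times, and the members' medians kept their sign, under the other scalings, filters, DESeq2 and the replicate block, while single calls changed. Without single libraries, genes called in experiment 1 went from 4131 to between 2732 and 4238, members lower from 29 to between 19 and 38, and the members' median to between -0.52 and -0.32; the lowest gene count was without LIN9 wt replicate 3. With the replicate number as a block, 35, 34 and 35 members were lower in the 3 LIN9 comparisons, and in experiment 1, where libraries share only a number, Atp5e, Atp5g2, Atp5j2, Cox20, Cox6b1 and Cox7c passed as well. With DESeq2, Atp5s in experiment 1, Uqcr11 with Sav1 wt, and Cox10 and Atp5sl with Sav1 KO missed the threshold (adjusted p = 0.0816, 0.0527, 0.0779 and 0.109), as did Atp5l with Sav1 wt. Genes called for Sav1 in LIN9 KO (2) were 77 with DESeq2, 0 with a mean count of at least 10, 309 with no filter, 0 with only the groups compared and 84 with the block; members called were 1, Cox4i2, with no filter and 1 with the block. Without single libraries these ranged from 0 to 355 genes and 0 to 1 members. Genes called for Sav1 in LIN9 wt (3) were 22 with no filter, 36 with only the groups compared and 0 to 2 without single libraries. Genes called for the interaction (0) were 17 with no filter and 0 to 64 without single libraries, 64 being without LIN9 KO Sav1 wt replicate 3. Cox19 in experiment 1 turned from -0.00 to 0.000514 with erythroid marker genes removed (an alternative added after seeing the data), 0.0074 with a mean count of at least 10 and 0.0017 with the block. Without single libraries, changes near 0 crossed it: Cox19 (-0.0717 to 0.10, -0.14 to 0.0262 and -0.0104 to 0.0653 in the 3 LIN9 comparisons), Cox7a2l (-0.12 to 0.15 in experiment 1 and -0.056 to 0.0912 with Sav1 KO), Cox8b with Sav1 KO (-0.33 to 0.0273) and Cox15 with Sav1 wt (-0.15 to 0.0233). Among ratios, Cox8b/Cox8a ranged from -0.0634 to 0.20 in experiment 1, from -0.13 to 0.0918 for Sav1 in LIN9 wt and from -0.28 to 0.0666 in LIN9 KO, Cox7a1/Cox7a2 from -0.0442 to 0.24 for Sav1 in LIN9 KO and Cox6b2/Cox6b1 from -0.23 to 0.48 for Sav1 in LIN9 wt. Apart from the effect of testing fewer or more genes and libraries, the cause was not tested. Depth limits Cox4i2 in LIN9 wt of experiment 2, with 14 to 18 counts a library, Cox6b2 there, with 14 to 34, and Cox7b2. It also limits heart-type Cox8b, with 40 to 200 counts over all libraries, and Cox7a1, with 74 to 341, more than their ubiquitous forms.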
